A study of Mus musculus with 3 samples.

Results

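The prostaglandin and leukotriene genes were 10 genes that carry arachidonic acid into prostaglandin E2 and leukotrienes, together with receptors for prostaglandin E2. They were taken as all gene probes of the arrays whose gene name was *Pla2g4a*, *Ptgs1*, *Ptgs2*, *Ptges*, *Ptges2*, *Ptges3*, *Ptger2*, *Ptger4*, *Alox5* or *Alox5ap*. These made up 10 of the 26840 gene names and 17 of the 56605 gene probes on the array. RNA came from RAW 264.7 cells, a murine macrophage line, and was hybridised in 1 colour (Cy3) to 3 Agilent arrays, 1 for each group. The LPS group received LPS, a TLR4 agonist, at 50 ng/mL. The CRL1505 + LPS group was first kept for 24 h with *L. rhamnosus* CRL1505 at 50000000 cells/mL, and the CRL1506 + LPS group with *L. plantarum* CRL1506 at the same dose and time, and both then received the same LPS. All 3 groups therefore carried LPS, which lasted 12 h in the design text and 3 h in the sample descriptions. Non-stimulated cells were not analysed here. With 1 array for each group there was no replicate, so no test could be run, and a gene is said to rise or fall where its intensity differed at least 2-fold between arrays.

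Arachidonic acid is released from membrane phospholipids by cytosolic phospholipase A2. The cyclooxygenases turn it into prostaglandin H2, which prostaglandin E synthases convert to prostaglandin E2, whereas 5-lipoxygenase and its helper protein turn it into leukotriene A4. In macrophages, LPS is known to induce *Ptgs2* and *Ptges*, and prostaglandin E2 feeds back on the same cells through EP2 and EP4, receptors that raise cyclic AMP.

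The groups differed in 4 of these genes. *Ptgs2*, the inducible cyclooxygenase, was 3.1-fold higher in CRL1505 + LPS than in LPS, and 1.31-fold lower in CRL1506 + LPS, which is under the threshold. *Ptgs1*, *Ptger4* and *Alox5* fell in each of the treated groups against LPS. The prostaglandin E synthases stayed under 2-fold in both comparisons. The start regions of the 4 genes that moved are shown for reference, and no value in the results rests on them. They run from 250 bases before to 30 bases after the RefSeq start, 5′ to 3′ on the coding strand, on build GRCm38.p6. The *Ptgs2* window lies at chr1:150099781-150100060 on the plus strand, that of *Ptgs1* at chr2:36230176-36230455 on the plus strand, that of *Ptger4* at chr15:5244158-5244437 on the minus strand and that of *Alox5* at chr6:116461149-116461428 on the minus strand. Capitals mark the motifs named in the next paragraph.
Ptgs2: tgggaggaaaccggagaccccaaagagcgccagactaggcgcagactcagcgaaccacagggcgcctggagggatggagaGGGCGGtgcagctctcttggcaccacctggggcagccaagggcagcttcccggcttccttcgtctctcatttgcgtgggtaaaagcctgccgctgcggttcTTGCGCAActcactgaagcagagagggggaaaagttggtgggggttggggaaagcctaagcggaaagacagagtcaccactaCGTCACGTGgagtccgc
Ptgs1: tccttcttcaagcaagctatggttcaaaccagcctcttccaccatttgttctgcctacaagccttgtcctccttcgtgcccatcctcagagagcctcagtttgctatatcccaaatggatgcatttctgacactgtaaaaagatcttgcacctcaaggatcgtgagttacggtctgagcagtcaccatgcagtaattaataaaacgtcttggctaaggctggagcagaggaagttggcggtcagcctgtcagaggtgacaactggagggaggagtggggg
Ptger4: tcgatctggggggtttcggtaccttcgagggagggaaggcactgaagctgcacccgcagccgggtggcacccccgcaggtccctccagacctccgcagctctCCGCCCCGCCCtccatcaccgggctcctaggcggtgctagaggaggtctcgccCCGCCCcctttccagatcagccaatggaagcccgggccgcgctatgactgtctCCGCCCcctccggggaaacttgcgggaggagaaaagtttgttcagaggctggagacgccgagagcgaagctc
Alox5: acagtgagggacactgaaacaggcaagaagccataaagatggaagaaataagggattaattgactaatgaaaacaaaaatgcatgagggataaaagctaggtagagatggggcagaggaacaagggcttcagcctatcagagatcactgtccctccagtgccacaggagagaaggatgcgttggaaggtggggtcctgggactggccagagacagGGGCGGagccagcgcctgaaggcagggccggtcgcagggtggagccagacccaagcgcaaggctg

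Both strands were searched for the CRE (TGACGTCA), its core CGTCA, the E-box CACGTG, the C/EBP motif TTNNGCAA, the GC box GGGCGG, the AP-1 motif TGANTCA, the TATA box TATAAA and the NF-kB motif. The *Ptgs2* window held the core of the CRE at +14, an E-box at +17 that overlaps it, a C/EBP motif at -69 and a GC box at -170. The *Ptger4* window held 4 GC boxes, of which those at -148 and -143 overlap, and the *Alox5* window held 1, at -35. No searched motif was found in the *Ptgs1* window. Genes of the set that stayed under 2-fold held several of the same motifs. The *Ptges3* window held the CRE core at +12, 4 GC boxes and an NF-kB motif at -87. An E-box lay at -77 in the *Ptges2* window, and the *Ptges* window held 2 GC boxes. These motifs thus do not set apart the genes that moved. Of the 32851 RefSeq windows of this length, 19.9% held the CRE core, 6.79% the E-box, 10.4% the C/EBP motif and 34.7% the GC box. The remaining shares were 1.74% for the CRE, 7.46% for AP-1, 13% for the TATA box and 7.94% for NF-kB. RefSeq windows were at hand for 9 of the 10 genes, and *Alox5ap* had none. Positions count from the RefSeq start, which was not checked against mapped starts. Distances from the true start of transcription may therefore differ, and for any gene the window may miss that start. Motifs outside the windows were not searched for. These letters describe the windows and say nothing about whether a factor was bound.

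The probes that measured these 4 genes are 60-base oligonucleotides, of which the first 30 bases are given so that the measured transcript can be traced. On build mm9 the *Ptgs2* probe lies at chr1:151954744-151954803, the *Ptgs1* probe at chr2:36107644-36107703, the *Ptger4* probe at chr15:5183422-5183481 and the *Alox5* probe at chr6:116360326-116360385. Whether they lie in an exon or a UTR was not analysed here.
Ptgs2 probe: tttttgaaaagtttgaagttagaacttagg
Ptgs1 probe: gagccacacttagactctttccaaagatgt
Ptger4 probe: ctgatactgatatgattttaaagcgtagct
Alox5 probe: tttatgcttcctccaattgcttgcatagag

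Levels below are log2 intensities relative to the 75th percentile over gene spots on the same array, so that 0 marks that percentile. Where a gene had several probes, the brightest is given first. All 10 of these brightest probes were well above background on every array, as were 15 of the 17 probes, and no probe of these genes had a spot marked as an outlier or with uneven pixels. The median SD of the log2 ratio between probes of 1 gene was 0.23 for CRL1505 + LPS against LPS, 0.21 for CRL1506 + LPS against LPS and 0.32 for CRL1505 + LPS against CRL1506 + LPS. The SD over repeated spots of 1 probe had a median of 0.04 to 0.05. These figures cover the array and not the cells. The arrays of LPS and CRL1506 + LPS shared a slide and a scan run, whereas the CRL1505 + LPS array lay alone on another slide, so strain and slide cannot be told apart for CRL1505. Its 75th percentile was also dimmer (517.0, against 743.1 and 697.9), with 48.5% of gene spots well above background, against 54.5% and 55.3%. Ratios are therefore given with their range over 7 other normalizations, which are listed with the processing, where the text turns on them.

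**Figure D1:**
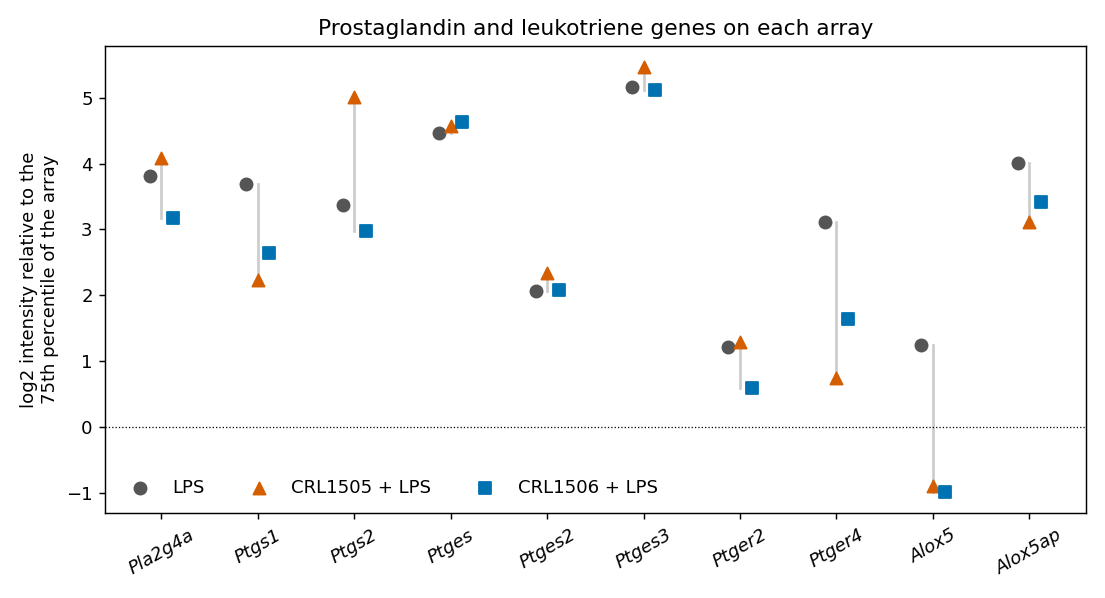
Log2 intensity of the 10 prostaglandin and leukotriene genes (brightest probe) relative to the 75th percentile of each array, with 1 point for each array and a grey line from the lowest to the highest. *Ptgs2* is highest in CRL1505 + LPS at 5.00, and *Ptgs1*, *Ptger4* and *Alox5* are highest in LPS at 3.69, 3.12 and 1.25; levels of different genes come from different probes and are not to be compared.

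In CRL1505 + LPS against LPS, 1 of the 10 genes rose (*Ptgs2*) and 3 fell (*Ptgs1*, *Ptger4* and *Alox5*). Over all 15609 genes compared, 18.3% passed 2-fold, 9.92% higher and 8.41% lower. In CRL1506 + LPS against LPS none rose and the same 3 fell. Over all 16284 genes 9.19% passed 2-fold, 5.67% higher and 3.52% lower. The 10 genes were chosen with earlier results of these data known, so their counts are not a test against these shares. The median log2 ratio of the 10 genes was 0.09 for CRL1505 + LPS, beside 0.01 for all genes, and -0.60 for CRL1506 + LPS, beside -0.06. Both comparisons use the same LPS array, so they are not independent of each other. In CRL1505 + LPS against CRL1506 + LPS, *Ptgs2* rose and no gene fell, with 9.01% and 7.46% of 15785 genes past 2-fold in those directions, 16.5% in all.

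**Figure D2:**
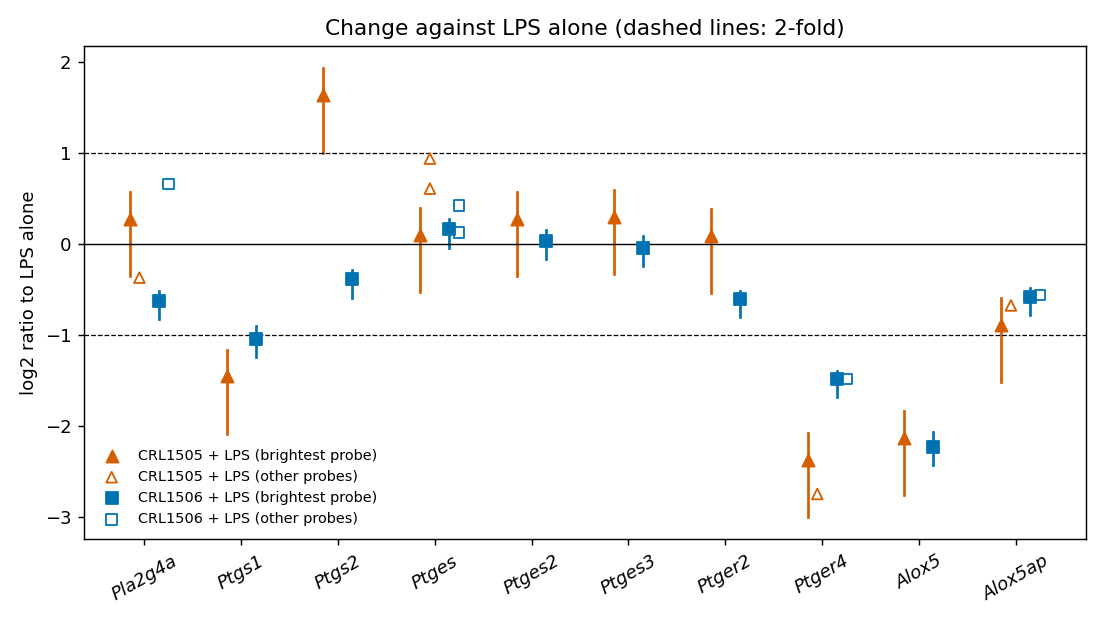
Log2 ratio to LPS of each gene in CRL1505 + LPS (triangles) and CRL1506 + LPS (squares), with filled symbols for the brightest probe, open symbols for other probes above background, and vertical lines for the range over the 7 other normalizations. Dashed lines mark 2-fold. *Ptgs2* lies past the upper line with CRL1505 only, and *Ptger4* and *Alox5* lie past the lower line with both strains under every normalization.

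*Pla2g4a* encodes cytosolic phospholipase A2, which frees arachidonic acid. Its level was 3.81 in LPS, 4.08 in CRL1505 + LPS and 3.18 in CRL1506 + LPS. Against LPS its log2 ratio came to 0.27 with CRL1505 (range -0.36 to 0.57) and -0.63 with CRL1506 (range -0.83 to -0.53), both under 2-fold. A second, much dimmer probe, 89.2 kb away and designed to the transcript ENSMUST00000142040, gave the opposite signs, -0.37 and 0.66. The 2 probes of this gene thus did not give a common order of the groups. *Pla2g4a* and *Ptgs2* are neighbours on chromosome 1, with their probes 278 kb apart on mm9. The log2 ratio of *Pla2g4a* minus that of *Ptgs2* was -1.36 with CRL1505 and -0.24 with CRL1506 on the brightest probe. With CRL1506 the second *Pla2g4a* probe turns the sign of this difference.

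The cyclooxygenases moved apart in CRL1505 + LPS. *Ptgs2*, measured by 1 probe, had a level of 3.37 in LPS, 5.00 in CRL1505 + LPS and 2.98 in CRL1506 + LPS, from processed signals of 7702, 16593 and 5509. It was thus highest on the CRL1505 + LPS array, with LPS and CRL1506 + LPS close together. Against LPS its log2 ratio was 1.63 for CRL1505 + LPS (range 1.0 to 1.93), and 4.50% of the genes compared lay at least as high. The low end of that range came from spike-in scaling and lay right at the 2-fold threshold. For CRL1506 + LPS it was -0.39 (range -0.59 to -0.29). The direct difference between the strains was 2.02 (4.07-fold, range 1.53 to 2.52), past 2-fold under all 7 normalizations, and 2.42% of genes lay at least as high.

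*Ptgs1*, the cyclooxygenase that most cells carry at rest, had a level of 3.69 in LPS, 2.23 in CRL1505 + LPS and 2.64 in CRL1506 + LPS, so LPS alone was the highest. It was 2.75-fold lower in CRL1505 + LPS (log2 ratio -1.46, range -2.09 to -1.16), with 3.68% of genes at least as low. With CRL1506 it was 2.07-fold lower (log2 ratio -1.05, range -1.25 to -0.91), at the edge of the threshold and past it under 3 of the 7 normalizations. Between the strains the log2 difference was -0.41. A second *Ptgs1* probe was well above background on the LPS array alone and adds no fold past the threshold. A quantity that any shift of a whole array leaves as it is, the log2 ratio of *Ptgs2* minus that of *Ptgs1*, was 3.09 in CRL1505 + LPS (8.52-fold, range 2.96 to 3.12) and 0.66 in CRL1506 + LPS (1.57-fold, range 0.60 to 0.68). The balance of the 2 cyclooxygenase transcripts had thus moved towards *Ptgs2* past 2-fold with CRL1505. With CRL1506 the difference had the same sign but stayed under 2-fold.

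Among 13126 genes measured above background throughout, the 5 whose pair of ratios to LPS lay nearest to that of *Ptgs2* were *Lacc1*, *D830039M14Rik*, *Mdk*, *Fgl1* and *Fdxacb1*. Their distance from *Ptgs2*, as the root of the summed squared differences of both log2 ratios, was 0.08 to 0.10. *Lacc1*, the nearest, had log2 ratios of 1.70 and -0.43. A pattern of this kind was not rare: 302 of the 13126 genes were at least 2-fold higher in CRL1505 + LPS and lay below LPS in CRL1506 + LPS.

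**Figure D3:**
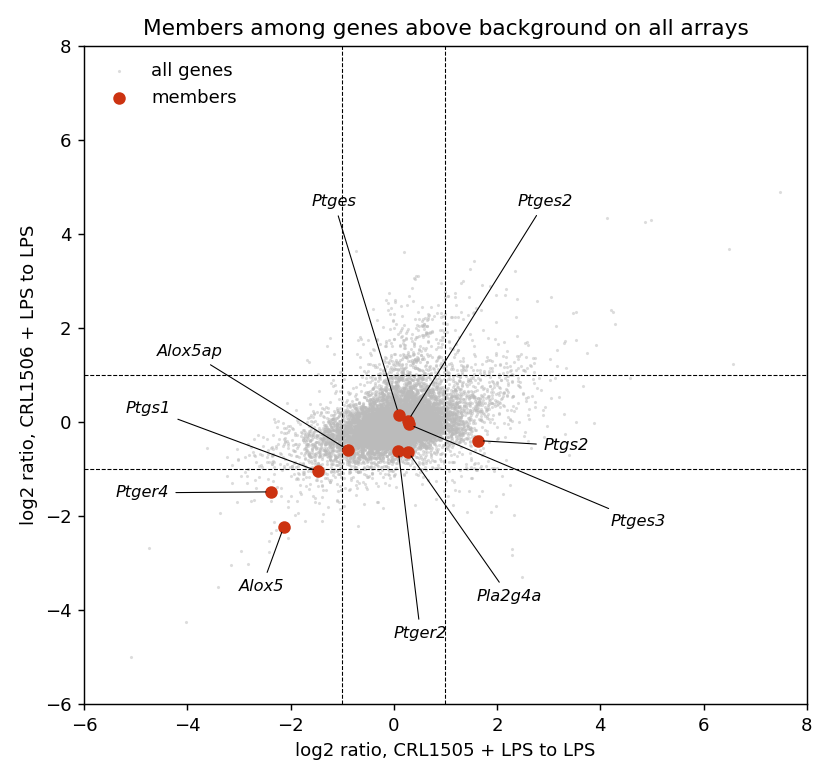
Log2 ratio to LPS in CRL1505 + LPS (horizontal) and CRL1506 + LPS (vertical) for 13126 genes measured above background throughout (grey), with the 10 prostaglandin and leukotriene genes in red. Dashed lines mark 2-fold; *Ptgs2* stands alone among the 10 at the right (1.63 and -0.39), while *Alox5*, *Ptger4* and *Ptgs1* lie at the lower left. Both axes share the LPS array, so the axes are not independent.

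Prostaglandin E synthases convert prostaglandin H2 to prostaglandin E2, and all 3 stayed under 2-fold. *Ptges*, the inducible microsomal form, had a level of 4.47 in LPS, 4.57 in CRL1505 + LPS and 4.63 in CRL1506 + LPS, which gives log2 ratios of 0.10 (range -0.53 to 0.39) and 0.16 (range -0.04 to 0.27). *Ptges2*, a membrane-associated form, had 2.06, 2.33 and 2.09, with log2 ratios of 0.27 (range -0.36 to 0.57) and 0.03 (range -0.17 to 0.15). *Ptges3*, the cytosolic form that also serves as the Hsp90 co-chaperone p23, had 5.17, 5.46 and 5.12, with log2 ratios of 0.29 (range -0.34 to 0.59) and -0.05 (range -0.25 to 0.08). The groups lay close together for each of these synthases, and their signs changed between normalizations. *Ptges*, on the minus strand, had 2 dimmer probes 5′ of the brightest, on mm9 at chr2:30747838-30747897 and chr2:30748214-30748273, against chr2:30744995-30745054. These gave 0.93 and 0.60 in CRL1505 + LPS, and 0.42 and 0.12 in CRL1506 + LPS, so with CRL1505 the value depended on the probe. Their first 30 bases are shown because the 3 probes target the same transcript at different places.
Ptges, brightest probe: atgataaaggactaaacctctgaacctgta
Ptges, probe with 0.93: gccacttacagatgagctgtcaagatttga
Ptges, probe with 0.60: aaccctctgatcgcctggatacatttcctc

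The log2 ratio of *Ptgs2* minus that of *Ptges* was 1.53 with CRL1505 (range 1.43 to 1.55) and -0.55 with CRL1506 (range -0.57 to -0.52). These values use the brightest *Ptges* probe. With the probe at 0.93 the difference with CRL1505 was under 2-fold, and with the probe at 0.60 it was just past 2-fold.

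The receptors for prostaglandin E2 parted as well. *Ptger4*, which encodes EP4, had a level of 3.12 in LPS, 0.74 in CRL1505 + LPS and 1.63 in CRL1506 + LPS. It was 5.19-fold lower in CRL1505 + LPS (log2 ratio -2.38, range -3.01 to -2.08) and 2.80-fold lower in CRL1506 + LPS (log2 ratio -1.48, range -1.68 to -1.40). Of the genes compared, 0.801% and 1.71% lay at least as low. A second *Ptger4* probe, at chr15:5184419-5184478, gave log2 ratios of -2.75 and -1.49, in the same direction and also past 2-fold. The remaining probe did not stand well above background anywhere. Between the strains *Ptger4* was lower with CRL1505 by a log2 difference of -0.89 on the brightest probe, past 2-fold under 3 of the 7 normalizations, and of -1.26 on the second probe.

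*Ptger2*, which encodes EP2, had a level of 1.21 in LPS, 1.30 in CRL1505 + LPS and 0.60 in CRL1506 + LPS. Its log2 ratios were 0.09 (range -0.54 to 0.38) and -0.61 (range -0.81 to -0.52), both under 2-fold. The log2 ratio of *Ptger4* minus that of *Ptger2* was -2.46 in CRL1505 + LPS (5.51-fold, range -2.48 to -2.37) and -0.88 in CRL1506 + LPS (1.83-fold, range -0.94 to -0.85). *Ptger1* and *Ptger3*, the other prostaglandin E2 receptors, did not stand well above background on any of the arrays.

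The leukotriene genes of the set lay lower with both strains. *Alox5*, which encodes 5-lipoxygenase, had a level of 1.25 in LPS, -0.89 in CRL1505 + LPS and -0.99 in CRL1506 + LPS, from processed signals of 1763, 279.0 and 351.8. The treated groups lay together, far below LPS. *Alox5* was 4.40-fold lower in CRL1505 + LPS (log2 ratio -2.14, range -2.77 to -1.84) and 4.71-fold lower in CRL1506 + LPS (log2 ratio -2.23, range -2.44 to -2.08), with 1.24% and 0.706% of genes at least as low. The difference between the strains was 0.10 (range -0.40 to 0.59). *Alox5* had 1 probe, so no second probe bears on it.

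*Alox5ap* encodes FLAP, the membrane protein that presents arachidonic acid to 5-lipoxygenase. Its level was 4.01 in LPS, 3.11 in CRL1505 + LPS and 3.42 in CRL1506 + LPS. Against LPS its log2 ratio came to -0.89 with CRL1505 (range -1.52 to -0.60), under 2-fold here but past it under 4 of the 7 normalizations, and -0.59 with CRL1506 (range -0.79 to -0.49). A second probe gave -0.68 and -0.56. The log2 ratio of *Alox5* minus that of *Alox5ap* was -1.24 with CRL1505 and -1.65 with CRL1506, so *Alox5* lay further below LPS than its helper protein. Downstream of 5-lipoxygenase, *Lta4h*, which makes leukotriene B4, had -0.56 and -0.27, and *Ltc4s*, which makes leukotriene C4, had -0.24 and -0.08, all under 2-fold. *Dpep2*, a dipeptidase that trims leukotriene D4, had 0.40 and -0.95 (range with CRL1506 -1.15 to -0.87).

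Neutrophils and mast cells also carry the 5-lipoxygenase pathway, and genes used as their markers were read on each array. The cells were a macrophage line, so these are transcript levels and not shares of cell types. Of 6 neutrophil markers, 5, 5 and 4 were well above background in LPS, CRL1505 + LPS and CRL1506 + LPS, with summed levels of 40.2, 41.4 and 74.6 times the 75th percentile. The count in LPS includes *Ly6g*, whose spot there was left out as an outlier, so it is not in that sum. Most of each sum was *Csf3r*, at log2 levels of 5.23, 5.30 and 6.16. With CRL1505, *S100a9* was higher by at least 9.04-fold and *S100a8* was 2.48-fold lower. Of 7 mast cell and basophil markers, 1, 1 and 2 were, with sums of 0.169, 0.199 and 0.277. All 8 macrophage markers were well above background on every array, with sums of 694.0, 670.6 and 563.4 that are mostly *Lyz2* and *Csf1r*. Single markers moved: with CRL1505 *Adgre1* was 4.83-fold and *Fcgr1* 5.28-fold higher and *Csf1r* 2.77-fold lower, and with CRL1506 *Adgre1* was 2.0-fold higher (log2 range 0.80 to 1.11). The part of these levels in the results was not tested. In RNA from whole cultures, fewer macrophages that express a gene and less RNA per cell cannot be told apart.

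Beside the 10 genes, 100 others of the eicosanoid pathway were listed, of which 99 were on the array. In CRL1505 + LPS against LPS 63 could be compared, and 2 rose and 7 fell, beside 9.92% higher and 8.41% lower over all genes. In CRL1506 + LPS 68 could be compared, and 6 rose and 2 fell, beside 5.67% and 3.52%. Their medians were -0.19 and -0.06, beside 0.01 and -0.06 for all genes. In each comparison 7 of these values are bounds, because a probe was not well above background on an array. None of the 12 other phospholipases A2 and lipid hydrolases compared passed 2-fold in CRL1505 + LPS, and 1 of 14 rose with CRL1506. In the leukotriene branch 1 of 11 fell with CRL1505, and none of 14 passed 2-fold with CRL1506. On the list drawn up for arachidonate supply, 1 of 15 genes fell with CRL1505, the desaturase *Fads2*. With CRL1506 1 of 16 rose, the fatty acid elongase *Elovl6*, whose value is a bound. This count is not a measure of arachidonate supply.

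The clearest rises were in receptors of the formyl peptide family, which bind bacterial peptides and, for *Fpr2*, lipoxin A4. *Fpr2* had a level of 1.95 in LPS, 4.71 in CRL1505 + LPS and 4.52 in CRL1506 + LPS, 6.80-fold and 5.95-fold above LPS. *Fpr1* had 0.02, 2.38 and 2.26, 5.14-fold and 4.71-fold above LPS. Both lay far above LPS in each treated group, and past 2-fold under all normalizations. *Ltb4r1*, the high-affinity leukotriene B4 receptor, stayed under 2-fold with log2 ratios of 0.31 and 0.43.

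Among the other prostanoid synthases, *Hpgds*, the haematopoietic prostaglandin D synthase, was dim, with levels of -4.17, -3.55 and -2.30 in LPS, CRL1505 + LPS and CRL1506 + LPS. Its log2 ratio of 1.87 in CRL1506 + LPS passed 2-fold (range 0.84 to 1.95), and that of 0.62 in CRL1505 + LPS did not. *Tbxas1*, thromboxane synthase, had levels of -0.36, -1.10 and -1.91, and its log2 ratio was -1.55 with CRL1506 (range -1.75 to -1.26), with -0.74 in CRL1505 + LPS. *Hpgds* and *Tbxas1* thus moved in opposite directions with CRL1506. The carbonyl reductase *Cbr2* had log2 ratios of -1.04 with CRL1505 (range -1.67 to -0.74) and -1.86 with CRL1506 (range -2.06 to -1.48). *Cbr3*, another carbonyl reductase, had -1.61 with CRL1505 (range -2.24 to -1.32) and -0.14 with CRL1506.

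Of the genes for inactivation and transport, *Slco2a1*, the prostaglandin transporter, was dim, with levels of -3.90 in LPS and -2.41 in CRL1506 + LPS. It was 2.82-fold higher with CRL1506, under 2-fold at the low end of its range (log2 range 0.66 to 1.58). In CRL1505 + LPS it was not well above background. *Pparg*, a nuclear receptor for prostaglandin J2 derivatives, fell with CRL1505 by at least 3.23-fold (range of the log2 bound -2.32 to -0.55) and had -0.68 in CRL1506 + LPS. *Mgst1*, a microsomal glutathione transferase, had -1.0 in CRL1505 + LPS, right at the threshold (range -1.63 to -0.71), and -0.32 in CRL1506 + LPS. *Fads2*, a desaturase on the route to arachidonic acid, had -1.17 with CRL1505 (range -1.80 to -0.87) and -0.46 with CRL1506. *Anxa1*, whose protein restrains phospholipase A2, had 0.86 with CRL1505 (range 0.23 to 1.16) and -0.02 with CRL1506.

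**Figure D4:**
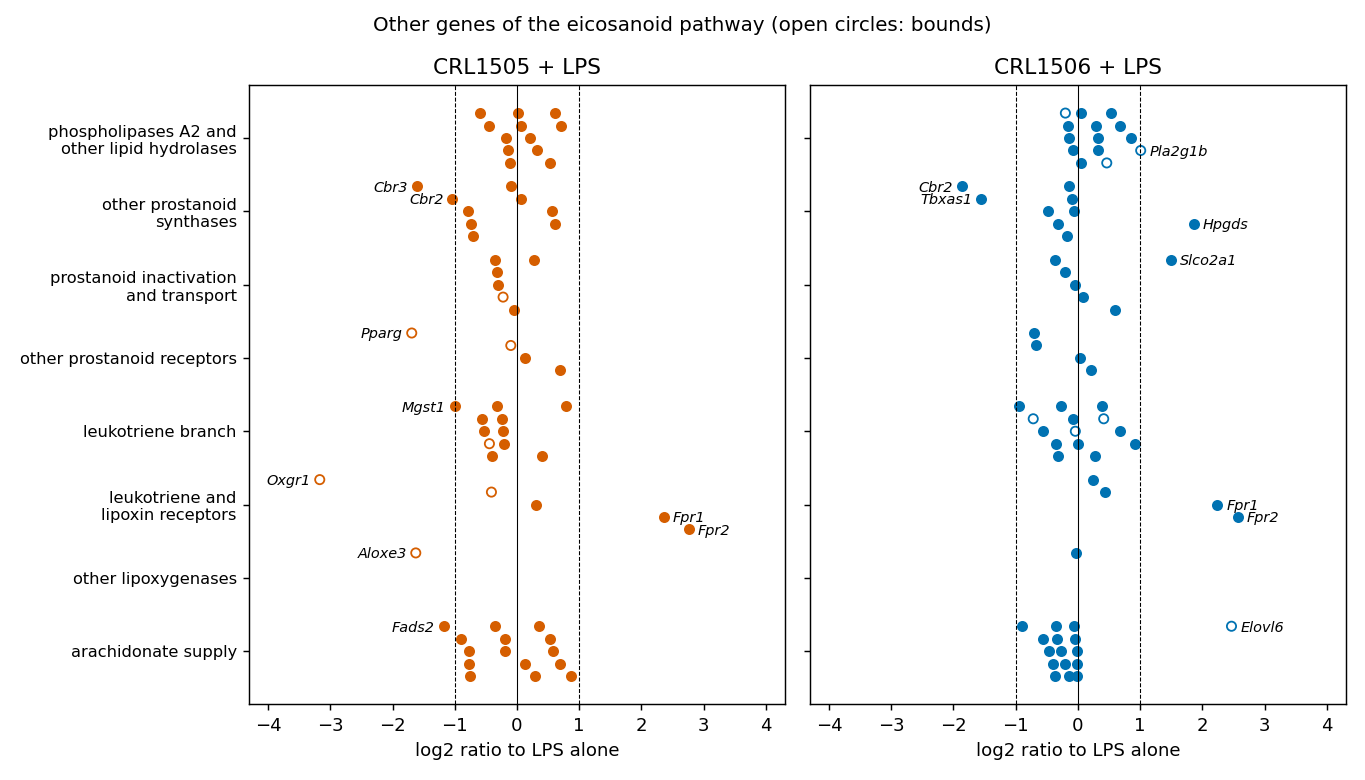
Log2 ratio to LPS of the other eicosanoid pathway genes that could be compared, by list (rows), in CRL1505 + LPS (left) and CRL1506 + LPS (right), with filled circles for ratios and open circles for bounds where a probe was not well above background on an array. Vertical position within a row has no meaning, and names are given for genes past the dashed 2-fold lines; *Fpr1* and *Fpr2* lie at the far right in both panels.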

How the data were processed

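The authors hybridised Cy3-labelled cRNA of RAW macrophages to SurePrint G3 mouse arrays and deposited, per the file headers, Feature Extraction 12.0.3.1 output (10.7.3.1 in the design text), whose processed signal is a background-subtracted intensity. They also deposited a table of log2 values, of which scale and centring are not described, with a median of 6.77 on every array. Here log2 processed signals were shifted so that the 75th percentile over gene spots was 0, outlier spots were left out, repeated spots averaged, and the brightest probe represented a gene. A probe not well above background on 1 array gave a bound against the dimmest such signal. Alternatives were a median shift, the 75th percentile over probes above background on all arrays, spike-in scaling (272 spots), quantile normalization, cyclic loess, normexp (offset 50) and the deposited log2 table, and also the mean over probes, outlier spots kept, uneven spots left out, other background filters, saturated probes left out (no gene spot was) and thresholds of 1.5-fold and 4-fold. All 10 genes were described. Pathway genes were named where past 2-fold in either treated group (at most 25), others for their role. The members and lists were chosen with earlier results of these data known. pandas 2.3.3, NumPy 2.4.6 and limma 3.58.1 in R 4.3.3 were used, and the calculation was tested on simulated data.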

Additional observations from a re-analysis of the deposited data

How the results depend on the processing

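Of 300 member values under alternative settings, 253 stayed within the spread and 47 moved. Many of the 253 could not have moved. Keeping outlier spots or leaving out uneven ones changed nothing, since no probe of these genes had such a spot. The mean over probes likewise changed nothing for the 5 genes with 1 probe. No value past 2-fold changed sign, but against LPS 2 calls depended on the normalization. Calls between the strains that did so are given further on. The fall of *Ptgs1* in CRL1506 + LPS was under 2-fold, at -0.91 to -0.98, with the 75th percentile over probes above background on all arrays, quantile normalization, cyclic loess and the deposited table. *Alox5ap* passed 2-fold in CRL1505 + LPS, at -1.52 to -1.01, with the first, the second and the last of these and with spike-in scaling. The median log2 ratio of the 10 genes in CRL1505 + LPS against LPS was 0.39 with a median shift and -0.54 with spike-in scaling, instead of 0.09. Between the strains it was 0.67 and -0.32, instead of 0.17. These scalings also moved the median over all genes above background on both arrays in CRL1505 + LPS against LPS to 0.35 and -0.57, from 0.06. At 4-fold, 0 genes rose in CRL1505 + LPS, and 1 fell in CRL1506 + LPS (*Alox5*). At 1.5-fold 6 fell there, with *Pla2g4a*, *Alox5ap* and *Ptger2* beside the 3. Between the strains 3 genes rose with a median shift or at 1.5-fold (*Ptgs2*, *Pla2g4a* and *Ptger2*), and 1 fell (*Ptger4*) with the 75th percentile over probes above background on all arrays, spike-in scaling, cyclic loess, the mean over probes or 1.5-fold. The causes were not tested. No paired analysis was possible because each group had 1 array. For the same reason no array could be left out, and the precision is limited by the number of arrays.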

Other observations

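Some pathway genes gave values that rest on dim or uneven spots. *Elovl6*, a fatty acid elongase, rose with CRL1506 by at least 5.53-fold against LPS (range of the log2 bound 1.19 to 2.55) and was not well above background on the other arrays. *Pla2g1b*, a secreted phospholipase A2, rose there by at least 2.01-fold (range of the log2 bound 0.28 to 1.09). *Aloxe3*, an epidermal lipoxygenase, fell with CRL1505 by at least 3.09-fold (range of the log2 bound -2.26 to -0.58), with a log2 ratio of -0.03 in CRL1506 + LPS. *Oxgr1* fell with CRL1505 by at least 9.0-fold, but its spot on the LPS array was uneven, with a mean pixel over 0.2 above the median pixel on the log2 scale, and its spot in CRL1506 + LPS was marked as an outlier. *Cysltr1*, a cysteinyl leukotriene receptor, had an outlier spot on the LPS array, and its levels of -0.18 in CRL1505 + LPS and -0.38 in CRL1506 + LPS differed by 0.20.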
